A study of Mus musculus with 9 samples.

Results

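RNA from mouse LSK cells carrying DNMT3A R882H was compared with RNA from LSK cells carrying wild-type DNMT3A, to describe what the substitution changes relative to the unmutated enzyme. LSK cells are the lineage-negative, Sca-1-positive and Kit-positive fraction of bone marrow that holds the stem and multipotent progenitor cells. The 6 samples of these 2 groups, 3 each, were chosen by their titles out of 9 samples in the series. The other 3 samples carried the empty vector and are given beside the comparison. All were C57BL/6 LSK cells transduced with a GFP-labelled vector, taken from transplanted mice and sorted before RNA extraction. Every group therefore shares transduction, transplantation and the host strain, and the labels give neither the time after transplantation, the age of the mice, the promoter of the vector nor the species of the DNMT3A insert. No label gives a deletion of the endogenous Dnmt3a gene. No label ties a sample to its own animal or culture, so p-values reflect only how far these samples differ from each other, possibly for technical reasons.

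DNMT3A is 1 of the enzymes that place new methyl groups on cytosines in CpG dinucleotides, the others in the blood system being Dnmt3b for new marks and Dnmt1 for copying existing marks. In haematopoietic stem cells its loss is known to favour self-renewal over differentiation. R882H replaces an arginine in the catalytic domain, is the recurrent substitution of acute myeloid leukaemia, and is known to lower the activity of the enzyme and to act on the wild-type protein in the same cell.

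Since CpG dinucleotides are the substrate of the enzyme, promoters of genes that lead this comparison are shown with every CpG in capitals. They cover 300 bases around the gene start, most of them upstream, read 5′ to 3′ on the strand of the gene, from RefSeq on build GRCm38.p6. The 15 leading genes described below all matched the promoter table. For each direction the gene with the fewest and the gene with the most CpGs are printed, out of those with 1 promoter entry. Spata21 (chr4:141088095-141088394, plus strand) and Aldh5a1 (chr13:24937612-24937911, minus strand) read higher with R882H. Ccl6 (chr11:83593038-83593337, minus strand) and Ankrd44 (chr1:54926338-54926637, minus strand) read lower.
Spata21: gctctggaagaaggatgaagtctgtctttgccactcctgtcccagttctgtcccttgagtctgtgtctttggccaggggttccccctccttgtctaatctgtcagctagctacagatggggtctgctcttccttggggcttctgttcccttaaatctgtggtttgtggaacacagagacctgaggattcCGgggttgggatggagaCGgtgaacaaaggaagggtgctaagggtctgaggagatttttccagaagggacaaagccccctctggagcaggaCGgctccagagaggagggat
Aldh5a1: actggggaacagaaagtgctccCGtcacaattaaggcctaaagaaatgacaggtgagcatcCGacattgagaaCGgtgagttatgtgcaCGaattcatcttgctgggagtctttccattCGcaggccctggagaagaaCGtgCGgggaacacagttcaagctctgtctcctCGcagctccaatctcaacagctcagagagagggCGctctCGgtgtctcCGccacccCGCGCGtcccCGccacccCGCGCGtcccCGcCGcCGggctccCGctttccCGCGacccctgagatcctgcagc
Ccl6: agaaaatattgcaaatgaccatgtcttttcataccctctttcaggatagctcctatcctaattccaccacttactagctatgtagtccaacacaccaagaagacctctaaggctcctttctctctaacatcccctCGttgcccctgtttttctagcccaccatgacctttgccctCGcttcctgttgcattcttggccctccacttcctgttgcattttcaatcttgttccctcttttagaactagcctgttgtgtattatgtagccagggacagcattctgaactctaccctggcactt
Ankrd44: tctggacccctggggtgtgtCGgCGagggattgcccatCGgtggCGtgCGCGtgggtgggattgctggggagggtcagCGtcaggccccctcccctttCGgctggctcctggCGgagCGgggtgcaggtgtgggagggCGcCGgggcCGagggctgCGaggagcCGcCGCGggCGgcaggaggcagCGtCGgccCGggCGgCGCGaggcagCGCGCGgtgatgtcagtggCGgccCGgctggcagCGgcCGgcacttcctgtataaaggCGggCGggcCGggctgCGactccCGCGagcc
The Spata21 window holds 3 CpGs and the Aldh5a1 window 24, while the Ccl6 window holds 2 and the Ankrd44 window 37. Of all 32851 promoters of this length in the table, 76.7% held as many CpGs as Spata21 or more, 20.0% as many as Aldh5a1 or more, 85.9% as many as Ccl6 or more and 5.58% as many as Ankrd44 or more. Methylation was not measured here, and the count of CpGs is a description of the sequence.

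Each sample was hybridised to 1 Agilent array in 1 colour, after amplification from 3.67 ng of total RNA. Levels are given as log2 of the processed signal minus the 75th percentile of the array, so that a level of 0 is the 75th percentile and a difference of 1 is 2-fold. Levels of different genes come from different probes and are not set against each other. Of 55681 probes, 60.8% ± 3.66 were well above background with R882H, 59.4% ± 4.71 with wild-type DNMT3A and 56.2% ± 2.39 with empty vector (SD, n = 3). The Kit, Ly6a (Sca-1), Cd34, Flt3 and Ptprc probes, markers of the sorted cells and of blood cells at large, were well above background on all 9 arrays. So were Cd3e, Cd4 and Itgam, markers of lineages that the sort removes, whereas Cd8a and Ms4a1 were not on any array. Wild-type replicate 3 stood apart: on the first principal component of the 6 arrays, which held 31.7% of the variance, it lay at -50.3 and the other 5 between -4.34 and 27.3. On the second, which held 25.8%, wild-type replicate 2 lay at 40.9 and the other 5 between -24.0 and 18.7. The slides divided the groups unevenly. Wild-type replicate 1 shared slide 1 with the empty vector arrays, wild-type replicates 2 and 3 shared slide 2 with R882H replicates 1 and 2, and R882H replicate 3 was alone on slide 3. The groups used here are those of the sample titles, carried to each scanner file through the sample it is linked to. These are called scanner labels below. The authors' deposited value table carried, in 7 of its 9 columns, the values of an array of another sample than the column names, 4 of them of another group. Under its column names 311 genes had an unadjusted p under 0.05, and 25 of these were among the 1052 found with the scanner labels. In sample order, the table held, by scanner label, the empty vector, then R882H, then wild-type arrays, each from number 1 to 3. Its columns were thus sorted by group, whereas the samples were not. Which of the 2 labellings is right was not tested.

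No gene passed the adjusted threshold between R882H and wild-type DNMT3A, and the differences below are descriptions of 3 arrays against 3. Among 13042 genes tested with limma, 0 (0%) had a Benjamini-Hochberg adjusted p under 0.05, and the smallest adjusted p was 0.0889, for the glutathione-cleaving enzyme gene Ggt1. At an unadjusted p under 0.05, 477 genes (3.66% of those tested) read higher with R882H and 575 (4.41%) lower, together 1052 (8.07%). The 3 R882H arrays lay all above the 3 wild-type arrays for 884 genes (6.78%) and all below them for 1140 genes (8.74%), 15.5% in both directions. Of all genes tested 48.0% read higher, with a median difference of -0.02 log2 units and a median SE of 0.231. The sign of a difference moved with the level. Among 5 equal bins of genes the median difference was 0.13 in the dimmest bin, 0.04, -0.04 and -0.08 in the next ones and -0.07 in the brightest. In the dimmest bin 7.28% of genes were higher and 3.03% lower at an unadjusted p under 0.05, against 1.30% and 5.83% in the brightest.

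**Figure D1:**
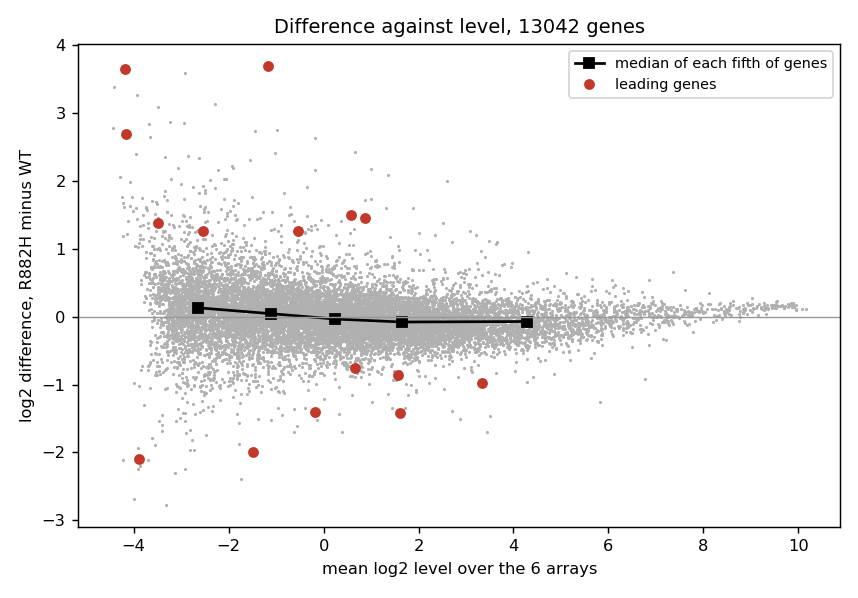
Difference between R882H and wild-type DNMT3A (vertical axis, log2 units) against the mean log2 level over the 6 arrays (horizontal axis, relative to the array's 75th percentile) for the 13042 genes tested, as grey points. Black squares are the medians of 5 equal bins by level, which run from 0.13 in the dimmest to -0.07 in the brightest, and red circles are 15 leading genes.

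The Dnmt3a probe read 1.67, 1.44 and 1.07 on the R882H arrays, 1.41, 1.80 and 0.45 on the wild-type arrays and 1.14, 1.44 and 0.51 on the empty vector arrays. The groups overlapped, and the difference between R882H and wild-type DNMT3A was 0.18 ± 0.37 (SE) log2 units, and -0.21 without wild-type replicate 3. The sources used here do not place this mouse probe relative to the insert, so it is no check of the labels. Dnmt1 differed by 0.22 ± 0.15 and Dnmt3b by -0.32 ± 0.31, with 2 of 3 detected Dnmt3b probes opposite in sign and a difference of 0.14 within slide 2. Tet2, which oxidises methylated cytosine on the way to demethylation, differed by -0.47 ± 0.30. Across the 22 tested genes of the DNA methylation machinery 13 read higher and 9 lower, with a median of 0.05. Of these, 2 higher and 1 lower had an unadjusted p under 0.05, beside 3.66% and 4.41% of all genes. They included Zbtb38, a reader of methylated DNA, at 0.51 ± 0.20, and Idh2, the mitochondrial isocitrate dehydrogenase that makes the cofactor of the Tet enzymes, at -0.38 ± 0.15. The median of this list was -0.10 without wild-type replicate 3 and 0.15 without wild-type replicate 1, so its sign rested on single arrays.

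Polycomb complexes mark and compact the chromatin of silent developmental genes. Of 11 tested genes of Polycomb repressive complex 2, which methylates histone H3, 10 were lower with R882H and Phf1 was higher at 0.23 ± 0.32, and the median was -0.16. Rbbp7, a histone-binding subunit, read 5.15, 5.07 and 5.14 with R882H and 5.80, 5.77 and 5.25 with wild-type DNMT3A. The arrays did not overlap, and the difference was -0.49 ± 0.17. Mtf2, a targeting subunit for which 1 of its detected probes had the opposite sign, stood at -0.46 ± 0.19 and the methyltransferase Ezh2 at -0.42 ± 0.21. On this list the R882H arrays scored -0.13, -0.05 and -0.23 and the wild-type arrays 0.18, 0.29 and -0.09, so the groups overlapped through wild-type replicate 3; a score is the median over the members of the level minus its mean over the 6 arrays. For Polycomb repressive complex 1, which ubiquitinates histone H2A, 8 of 19 tested members were higher and 11 lower, with a median of -0.09, close to the balance of all genes. Its member of smallest p was Pcgf1 at -0.75 ± 0.27, followed by the ubiquitin ligase Rnf2 at 0.30 ± 0.15 and the co-repressor Bcor at 0.40 ± 0.20, and Bmi1, needed for stem cell self-renewal, stood at -0.36 ± 0.21. The median of this list was 0.02 without wild-type replicate 2, -0.15 without wild-type replicate 1 and -0.00 without R882H replicate 3.

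The leading genes higher with R882H, none of which passed, were Ggt1, Aldh5a1, Klhdc1, Krt18, Tom1l1, Serpinh1, Apold1 and Spata21. Aldh5a1 encodes the mitochondrial succinate semialdehyde dehydrogenase of the GABA shunt. Its levels were 1.05, 1.24 and 1.70 with R882H, -0.03, -0.28 and -0.18 with the wild-type enzyme and 1.29, 1.59 and 1.52 with empty vector. R882H and wild-type arrays did not overlap, the difference was 1.49 ± 0.19 (2.81-fold, limma adjusted p = 0.180), and the range of the R882H arrays took in all empty vector arrays. Krt18, a keratin used as a marker of stem cells, read 1.15, 1.80 and 1.85 with R882H and 0.01, 0.28 and 0.13 with wild-type DNMT3A. Its arrays did not overlap either, and the difference was 1.46 ± 0.22 (2.75-fold, limma adjusted p = 0.217), with empty vector at 0.85, 1.26 and 0.86. Apold1, an early-response gene of endothelium, read 0.77, 1.01 and 0.27 against -2.0, -3.64 and -3.38. The difference was 3.69 ± 0.61 (12.9-fold, limma adjusted p = 0.247), and the empty vector arrays lay apart from each other at -1.62, 0.03 and -2.29, the last within the wild-type range. Tom1l1, an adaptor of membrane traffic, differed by 1.27 ± 0.19 (limma adjusted p = 0.217) and Spata21 by 1.26 ± 0.21 (limma adjusted p = 0.247). Ggt1, Klhdc1 and Serpinh1 were well above background on all 3 R882H arrays and on no wild-type array, so that their folds are lower bounds. They set the R882H mean against a floor on each wild-type array, the dimmest signal that was well above background there or the probe's own signal where that was brighter. Ggt1 read -2.89, -1.90 and -2.27 with R882H and was at least 2.89-fold higher, Klhdc1 at -2.95, -2.80 and -2.66 at least 2.11-fold, and Serpinh1, a collagen chaperone, at -2.70, -3.02 and -2.68 at least 2.12-fold. Their limma adjusted p-values were 0.0889, 0.180 and 0.217.

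The leading genes lower with R882H were Ak4, Ccl6, Ankrd44, Zfp503, Txndc15, Fcer1g and Cdkn2a, and none passed. Ak4, a mitochondrial adenylate kinase, read 1.07, 0.76 and 0.87 with R882H, 2.24, 2.17 and 2.53 with the wild-type enzyme and 1.70, 2.21 and 2.33 with empty vector. The R882H arrays lay below all other arrays, and the difference from wild-type DNMT3A was -1.41 ± 0.20 (2.66-fold lower, limma adjusted p = 0.217). Ccl6, a chemokine of myeloid cells, read -2.24, -2.94 and -2.24 against -1.02, -0.68 and 0.27, a difference of -2.0 ± 0.34 (4.0-fold lower, limma adjusted p = 0.247). Ankrd44, a regulatory ankyrin subunit of protein phosphatase 6, read 1.1, 1.12 and 1.20 against 2.12, 1.98 and 1.89. The R882H arrays lay close together and below the others, and the difference was -0.86 ± 0.15 (limma adjusted p = 0.247). Fcer1g, the signalling chain shared by Fc receptors, read 2.85, 2.78 and 2.88 against 3.46, 3.95 and 4.03, a difference of -0.98 ± 0.19 (limma adjusted p = 0.333). Zfp503, a zinc finger repressor, differed by -1.40 ± 0.24 and Txndc15 by -0.75 ± 0.15. Cdkn2a, the locus of the cell cycle inhibitors p16 and p19Arf, was well above background on all 3 wild-type arrays and on no R882H array. It was at least 2.06-fold lower with R882H (limma adjusted p = 0.333) and did not reach that call on empty vector arrays either, where it read -3.57, -3.71 and -3.92 against -3.03, -3.20 and -2.29 with wild-type DNMT3A.

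**Figure D2:**
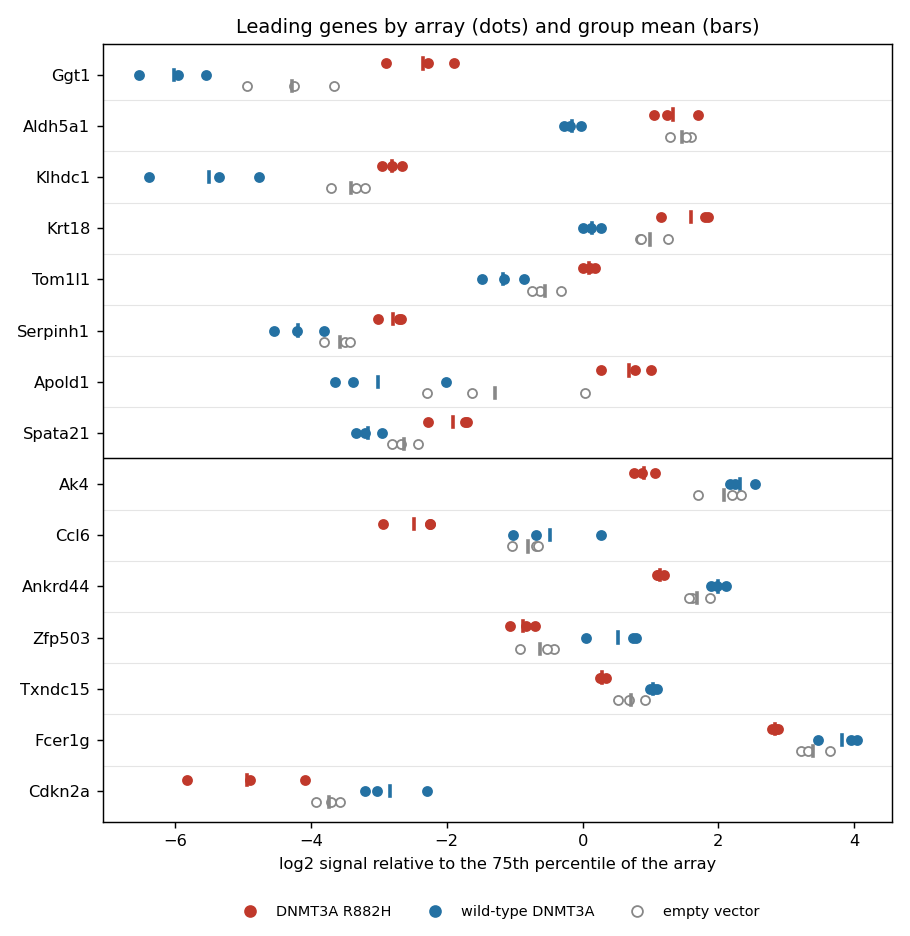
Levels of 15 leading genes (log2 units against the 75th percentile of the array, horizontal axis) on every array, with 3 dots and a mean bar for each group; genes above the black line read higher with R882H and genes below it lower. R882H dots (red) do not overlap with wild-type dots (blue) in any row, as the rule for these genes requires, and the mean of empty vector (open grey) lies between the other means for 14 of the 15 genes.

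The mean of empty vector lay between the R882H and wild-type means for 14 of these 15 genes, nearer to wild-type DNMT3A for 11 and nearer to R882H for 4, which were Aldh5a1, Klhdc1, Krt18 and Zfp503. For Aldh5a1 it lay beyond R882H. Over the 477 genes higher at an unadjusted p under 0.05, the empty vector mean lay between the 2 groups for 327, beyond wild-type DNMT3A for 101 and beyond R882H for 49. Over the 575 lower genes these counts were 465, 56 and 54. The empty vector mean was the nearer to wild-type DNMT3A for 286 of the 477 and for 347 of the 575, and to R882H for the others. A mean between 2 groups chosen for their distance is the common case, and these counts are a description.

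Genes typical of haematopoietic stem cells read higher with R882H as a group. Of 29 tested members 28 were higher, with a median difference of 0.77 log2 units, against 48.0% and -0.02 over all genes, and Fgd5 stood at -0.02 ± 0.18. At an unadjusted p under 0.05 were 9 members, all higher, and 9 had arrays that did not overlap, where 3.66% and 6.78% of all genes did so on the higher side. Robo4, a guidance receptor of stem cells and endothelium, read 0.03, -0.29 and -0.69 with R882H and -1.19, -2.36 and -2.04 with wild-type DNMT3A, a difference of 1.55 ± 0.34. The arrays did not overlap. Nupr1, a stress-induced chromatin protein that restrains stem cell cycling, read 0.81, 0.81 and 0.19 against -1.49, -0.89 and -1.52, a difference of 1.90 ± 0.42. Gata2, a transcription factor needed to maintain stem cells, read 4.24, 4.13 and 4.18 against 3.57, 3.58 and 3.08, a difference of 0.77 ± 0.24. Their arrays did not overlap either, and further members past the unadjusted threshold included Vwf at 2.41 ± 0.60, Pdzk1ip1 at 1.89 ± 0.78 and Mllt3 at 0.64 ± 0.27, beside Krt18 above. Vwf and Pdzk1ip1 were well above background on 2 of 3 wild-type arrays, and their differences were 1.71 and 0.92 without wild-type replicate 3 and 1.38 and 0.70 with normexp background correction. The R882H arrays scored 0.50, 0.66 and 0.07, the wild-type arrays -0.23, -0.18 and -0.87 and the empty vector arrays -0.02, 0.07 and -0.94. R882H and wild-type scores did not overlap, and replicate 3 was the lowest of its group in each of the 3 groups. The list median was 0.49 without wild-type replicate 3 and 0.31 with normexp background correction, and 0.91 within slide 2. In these bulk samples more cells of a type and more RNA per cell cannot be told apart.

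The surface markers of the sort were closer to even. Of 15 tested sorting and stem cell surface markers 11 were higher and 4 lower, with a median of 0.29, and 0.17 without wild-type replicate 3. Kit, the stem cell factor receptor, read 4.33, 4.6 and 3.99 with R882H and 4.42, 4.25 and 3.92 with wild-type DNMT3A, a difference of 0.11 ± 0.23 whose sign turned without wild-type replicate 3 (-0.03). Ly6a, the gene of Sca-1, read 2.11, 1.73 and 2.87 against 1.30, 0.98 and 2.35, a difference of 0.69 ± 0.39. Both genes overlapped between the groups, as did Cd34 at -0.24 ± 0.26 and Flt3, the cytokine receptor of multipotent progenitors, at 0.02 ± 0.36, for which 1 of 2 probes had the opposite sign. Cd48, which marks progenitors and is low on stem cells, read 3.54, 3.41 and 3.69 against 3.95, 4.09 and 4.23 and did not overlap, a difference of -0.54 ± 0.18. Eng and Itga2b, both present on stem cells, differed by 0.48 ± 0.22 and 0.48 ± 0.24. Of 22 stem cell and leukaemia transcription factors 14 were higher and 8 lower with a median of 0.13. Of these, 1, Myb, had an unadjusted p under 0.05 at -0.34 ± 0.15, a share near the 4.41% of all genes on the lower side. Runx2 and Hlf of the same list stood at 0.60 ± 0.29 and 0.83 ± 0.47.

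Hox cluster genes and their cofactors, which sustain immature blood cells, were higher for 15 of 19 tested members, with a median of 0.37. Of these, 4 higher and 0 lower had an unadjusted p under 0.05, beside 3.66% and 4.41% of all genes. Hoxb2 read -0.83, -0.75 and -0.60 with R882H and -5.74, -1.35 and -4.47 with wild-type DNMT3A, a difference of 3.13 ± 1.01. It was well above background on 1 of 3 wild-type arrays, so most of this difference rests on arrays where the gene was not measured above background. Hoxa2, likewise above background on 1 wild-type array, read -3.36, -3.24 and -0.72 with R882H and -3.60, -4.95 and -3.91 with wild-type DNMT3A. Its difference of 1.71 ± 0.69 rested largely on R882H replicate 3, and Pbx3 stood at 0.88 ± 0.38. Hoxa9 and its cofactor Meis1, which drive leukaemia when overexpressed together, stood at 0.20 ± 0.65 and 0.46 ± 0.49, and Hoxb4 at 0.17 ± 0.28. These 3 overlapped between the groups, and the sign turned without wild-type replicate 2 for Hoxa9 (-0.31) and without wild-type replicate 3 for Meis1 (-0.09). The scores of the groups overlapped on this list, and its median was 0.22 with normexp background correction and 0.61 within slide 2. With only genes well above background on each of the 6 arrays, 12 of 16 were higher and the median was 0.28.

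Megakaryocyte and platelet genes were higher for 19 of 20 tested members, with a median of 0.47, and Thbs1 stood at -0.57 ± 0.97. At an unadjusted p under 0.05 were 7 members, all higher, beside 3.66% of all genes on the higher side and 4.41% on the lower. Rab27b, which releases platelet granules, read 1.35, 1.43 and 1.37 with R882H and 0.22, 0.73 and 0.38 with wild-type DNMT3A, a difference of 0.94 ± 0.18. F2r, a thrombin receptor, read 3.76, 3.67 and 4.02 against 2.60, 3.10 and 2.12, a difference of 1.21 ± 0.26. Gp9, a subunit of the von Willebrand factor receptor, read -1.20, -1.47 and -1.69 against -2.86, -2.42 and -2.73, a difference of 1.21 ± 0.30. None of the 3 overlapped between the groups. The platelet chemokine gene Pf4 read 3.81, 4.45 and 2.55 against 1.86, 2.06 and 0.88, a difference of 2.0 ± 0.66, with Mmrn1, above background on 2 of 3 wild-type arrays, at 1.63 ± 0.53, Treml1 at 1.34 ± 0.45 and Vwf as given above. The arrays scored 0.49, 0.47 and 0.07 with R882H, -0.11, -0.17 and -0.64 with the wild-type enzyme and -0.24, -0.10 and -0.71 with empty vector. The median ranged from 0.39 to 0.70 over leaving out 1 array at a time and was 0.75 within slide 2. Several genes of this list, Vwf among them, are also stem cell genes of the list above.

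Erythroid genes were higher for 19 of 24 tested members with a median of 0.37. An unadjusted p under 0.05 was reached by 5 of the higher and no lower member, beside 3.66% and 4.41% of all genes. Aqp1, a water channel of red cells, read 2.82, 3.16 and 2.88 with R882H and 1.70, 1.68 and 1.89 with wild-type DNMT3A, a difference of 1.20 ± 0.41. Epor, the erythropoietin receptor, read 0.02, 0.60 and 0.04 against -1.16, -0.81 and -1.04, a difference of 1.23 ± 0.45. Neither overlapped between these groups, but the empty vector arrays spanned both, at 2.94, 1.55 and 1.0 for Aqp1 and 0.19, -1.49 and -1.70 for Epor. Ank1 of the red cell membrane stood at 0.84 ± 0.31 and the haem catabolism gene Blvrb at 1.28 ± 0.52. Add2, a membrane skeleton gene, was not well above background on any wild-type array and was at least 3.13-fold higher with R882H. Gata1, which switches on red cell and megakaryocyte genes, read 3.43, 3.23 and 2.86 against 2.53, 3.01 and 2.25 and overlapped, a difference of 0.58 ± 0.38. The R882H arrays scored 0.20, 0.37 and 0.08 and the wild-type arrays -0.11, -0.30 and -0.20, without overlap, against 0.56, -0.71 and -0.18 with empty vector. The list median was 0.22 without R882H replicate 2.

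**Figure D3:**
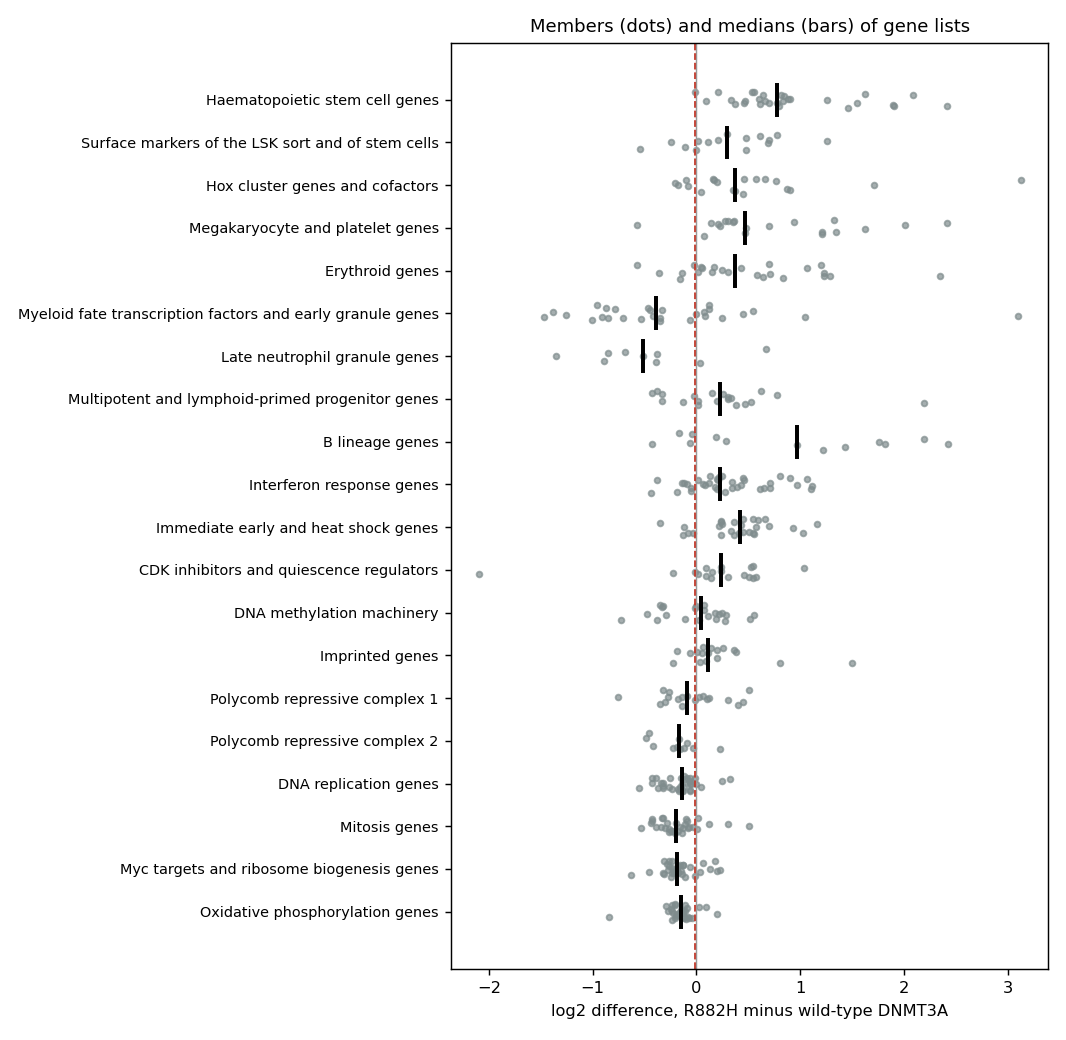
Difference between R882H and wild-type DNMT3A (log2 units, horizontal axis) of each tested member of 20 gene lists (dots) with the median of the list (black bar); vertical spread of the dots is for legibility, and the red dashed line is the median of all genes, -0.02. Stem cell and B lineage genes have the highest medians shown, 0.77 and 0.97, and late neutrophil genes the lowest, -0.52, with wide spread within each list.

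Myeloid genes leaned the other way. Of 28 tested myeloid fate factors and early granule genes 19 were lower and 9 higher, with a median of -0.39. Mpo, the peroxidase of the primary granule, read 5.92, 6.08 and 6.91 with R882H and 6.79, 7.19 and 7.68 with wild-type DNMT3A, a difference of -0.91 ± 0.40. The groups overlapped by 1 array, R882H replicate 3, as they did for the granule proteases Elane at -1.39 ± 0.89 and Ctsg at -1.25 ± 0.62. Irf8, which directs monocyte and dendritic cell fate, read 1.28, 0.79 and 1.97 against 2.23, 2.23 and 2.59 and did not overlap, a difference of -1.0 ± 0.32. Irf4, a related factor of lymphoid and dendritic cells, was on the other side, not well above background on any wild-type array and at least 3.86-fold higher with R882H. Cebpa and Spi1, the factors that commit progenitors to the myeloid fate, stood at -0.71 ± 0.35 and -0.47 ± 0.24. The arrays scored -0.37, -0.42 and 0.16 with R882H, -0.06, 0.05 and 0.61 with the wild-type enzyme and 0.34, -0.14 and 0.65 with empty vector. R882H and wild-type scores overlapped, replicate 3 was the highest of each group, and the median was -0.18 without wild-type replicate 3.

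Of 19 late neutrophil genes, 9 were above background and tested, 7 of them lower, with a median of -0.52. Cxcr2, the chemokine receptor that calls neutrophils from the marrow, stood at -0.85 ± 0.36 and Anxa1 at -0.68 ± 0.35, whereas Cd177 stood at 0.67 ± 0.24. This median ran from -0.24 without wild-type replicate 3 to -1.13 without wild-type replicate 1, and was -0.05 without number 3 in every group. Genes of mast cells, basophils and eosinophils were lower for 11 of 15, with a median of -0.26. The mast cell protease gene Cpa3 read 1.48, 2.07 and 2.47 with R882H and 3.30, 3.06 and 2.88 with wild-type DNMT3A, without overlap, a difference of -1.07 ± 0.32. Siglecf, an eosinophil lectin, stood at -0.88 ± 0.31 and Slc18a2, a monoamine transporter of mast cells, at 0.69 ± 0.24. Macrophage and dendritic cell genes were divided, 8 of 15 higher and 7 lower, with a median of 0.12 that was -0.07 without R882H replicate 1 and -0.02 without either wild-type replicate 1 or 2. Apoe, a lipid carrier, stood at 1.11 ± 0.37, the monocyte chemokine receptor gene Ccr2 at -1.5 ± 0.64 and Lyz1 at -0.63 ± 0.21, though Lyz1 and Lyz2 are near-identical and their probes can share signal.

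Genes of the earliest B cell stages read higher, from dim probes, some of them not well above background on every wild-type array. Of 13 tested B lineage genes 9 were higher and 4 lower with a median of 0.97. An unadjusted p under 0.05 was reached by 6 higher and 0 lower members, beside 3.66% and 4.41% of all genes. Vpreb1 and Vpreb2, near-identical genes, make part of the surrogate light chain with which pre-B cells build their receptor, so their probes can share signal. Vpreb2 read -1.18, -0.70 and -0.01 with R882H and -2.88, -2.94 and -1.35 with wild-type DNMT3A, without overlap, a difference of 1.76 ± 0.50. Vpreb1 read 1.0, 1.71 and 2.91 against -0.52, -2.65 and 1.53, a difference of 2.42 ± 0.94, and here wild-type replicate 3 lay among the R882H arrays. Cd79a, which signals for the B cell receptor, read -2.10, -0.88 and -0.42 against -3.52, -2.13 and -2.05 and overlapped, a difference of 1.43 ± 0.49. Rag1, which cuts antigen receptor genes for rearrangement, stood at 2.19 ± 0.81, Vpreb3 at 1.22 ± 0.50 and the receptor adaptor Blnk at 0.97 ± 0.42. Cd79a, Rag1 and Vpreb3 were well above background on 2 of 3 wild-type arrays, and the scores of the groups overlapped on this list. These are dim probes. With only genes well above background on each of the 6 arrays, 4 of 8 were higher and 4 lower, with a median of 0.07. With normexp background correction the median of the list was 0.37, and within slide 2 it was 0.47. The mature B cell marker Ms4a1 was not well above background on any array.

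Multipotent and lymphoid-primed progenitor genes, of which 14 of 20 were higher, had a median of 0.23. Mef2c, a factor of lymphoid priming, stood at 0.47 ± 0.25, beside Rag1. The median was 0.01 without R882H replicate 1, 0.03 without wild-type replicate 3 and 0.11 without wild-type replicate 2. Genes of T and NK cells were even, 9 of 17 higher and 8 lower, with a median of 0.11 that was -0.12 without wild-type replicate 3, -0.00 without wild-type replicate 1, 0.05 and 0.02 without R882H replicates 1 and 2 and 0.19 without R882H replicate 3. Tbx21, the T-bet factor of effector T and NK cells, read -0.61, -1.06 and -0.90 with R882H, -1.74, -1.72 and -1.77 with the wild-type enzyme and -1.85, -1.65 and -1.66 with empty vector. The R882H arrays lay above all others, by 0.89 ± 0.16 over wild-type DNMT3A. Lck and Nkg7 stood at 0.41 ± 0.23 and -0.35 ± 0.21. Of 12 tested endothelial and stromal genes 8 were higher, with a median of 0.33. The collagen gene Col1a2 read -1.54, -0.44 and -1.0 against -2.51, -2.69 and -1.84, a difference of 1.35 ± 0.33 without overlap, and Col3a1 was not well above background on any wild-type array and at least 1.85-fold higher. The endothelial adhesion gene Pecam1 stood at -0.62 ± 0.24. The median of this list was 0.06 with only genes well above background on each of the 6 arrays and 0.62 without R882H replicate 3. The part of these marker lists in the other differences was not tested.

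**Figure D4:**
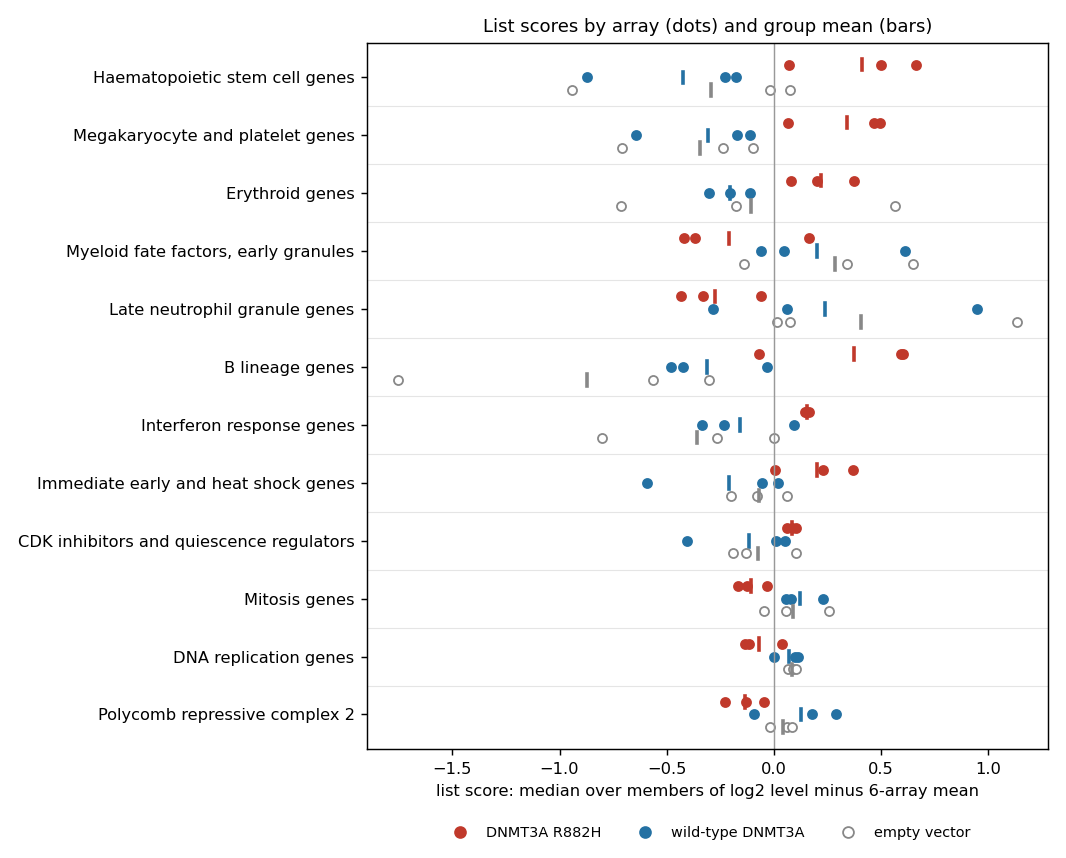
Score of each array on 12 gene lists (median over the members of the log2 level minus its mean over the 6 R882H and wild-type arrays, horizontal axis), with 3 dots and a mean bar per group. On the stem cell list the R882H arrays lie at 0.50, 0.66 and 0.07 and the wild-type arrays at -0.23, -0.18 and -0.87, without overlap, while on the myeloid list the groups overlap.

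Genes induced by interferon were higher for 28 of 36 tested members, with a median of 0.23. At an unadjusted p under 0.05 were 2 higher and 0 lower, a share near the 3.66% of all genes on the higher side. Isg15, a ubiquitin-like antiviral protein, read 0.45, 0.36 and 0.70 with R882H and 0.03, -0.35 and 0.02 with wild-type DNMT3A, a difference of 0.61 ± 0.22. Gbp2, a guanylate-binding protein, read 0.30, 0.70 and 0.24 against -0.20, -0.80 and 0.12, a difference of 0.70 ± 0.27. Neither overlapped, and Oasl2 stood at 0.90 ± 0.40. The R882H arrays scored 0.16, 0.15 and 0.14 and the wild-type arrays 0.09, -0.23 and -0.34, so that wild-type replicate 1 came close to R882H. The list median was 0.39 without that array and 0.41 within slide 2. With only genes well above background on each of the 6 arrays, 25 of 31 were higher and the median was 0.21. MHC and antigen presentation genes were higher for 16 of 25 with a median of 0.15. The class II gene H2-Ab1 read 2.52, 2.43 and 3.05 against 1.98, 1.31 and 1.78, without overlap, a difference of 0.98 ± 0.28. Ciita, the activator of class II genes, stood at 0.32 ± 0.13, H2-Eb1 at 0.60 ± 0.25 and the lysosomal protease gene Ctss at -0.65 ± 0.23. The median was 0.02 without wild-type replicate 2, 0.05 without R882H replicate 3, 0.26 without wild-type replicate 3 and 0.27 without R882H replicate 2.

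Immediate early and heat shock genes, which respond within minutes to growth factors or stress and to cell handling, were higher for 23 of 28 tested members, with a median of 0.42. Jund read 7.44, 7.72 and 7.94 with R882H and 6.99, 7.0 and 7.13 with wild-type DNMT3A, a difference of 0.66 ± 0.17. Jun, its partner in the AP-1 factor, read 2.04, 2.64 and 2.81 against 1.62, 1.64 and 1.45, a difference of 0.93 ± 0.28. The co-chaperone gene Dnajb1 read 6.45, 6.17 and 6.30 against 5.97, 5.80 and 5.85, a difference of 0.43 ± 0.15. All 3 separated the groups, and Dusp5 at 1.16 ± 0.46, Zfp36 at 0.56 ± 0.24 and Junb at 0.54 ± 0.24 were further members at an unadjusted p under 0.05. On the other side the chaperone gene Hsp90aa1 stood at -0.35 ± 0.14, below all wild-type arrays and also at an unadjusted p under 0.05. The scores overlapped, at 0.00, 0.23 and 0.37 with R882H and -0.06, 0.02 and -0.59 with wild-type DNMT3A. The median was 0.18 without wild-type replicate 3, whose score on this list, -0.59, was the lowest of the 9 arrays.

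Genes of cell division read slightly lower with R882H. Of 36 tested DNA replication genes 33 were lower with a median of -0.14, and Pcna, Rfc2 and Gins3 stood at 0.05, 0.25 and 0.32. Fen1, which trims Okazaki fragments, read 2.50, 2.63 and 2.67 with R882H and 3.12, 3.10 and 3.22 with wild-type DNMT3A, a difference of -0.55 ± 0.14. Orc1 of the origin recognition complex read -0.70, -0.64 and -0.48 against -0.28, -0.05 and -0.21, a difference of -0.43 ± 0.15. Neither overlapped, and the licensing inhibitor gene Gmnn stood at -0.39 ± 0.15 and the helicase subunit gene Mcm4 at -0.32 ± 0.13. Of 31 mitosis genes 26 were lower with a median of -0.20. An unadjusted p under 0.05 was reached by 4 of the lower and no higher member, beside 4.41% and 3.66% of all genes. Incenp and Aurkb of the chromosomal passenger complex stood at -0.43 ± 0.15 and -0.43 ± 0.18, Ccnb1, the cyclin that starts mitosis, at -0.53 ± 0.18 and the checkpoint kinase gene Bub1 at -0.39 ± 0.14. Cdk1, the kinase that Ccnb1 activates, read 0.99, 0.98 and 1.43 against 0.93, 1.47 and 1.43 and overlapped, a difference of -0.14 ± 0.21. The mitosis scores were -0.17, -0.13 and -0.03 with R882H and 0.06, 0.08 and 0.23 with wild-type DNMT3A, without overlap. The DNA replication scores overlapped, at -0.13, -0.12 and 0.04 with R882H and 0.10, 0.00 and 0.11 with wild-type DNMT3A. Beside these medians, the 2 brightest bins of all genes had medians of -0.08 and -0.07, and the part of the level in the lists was not tested. After cyclic loess the DNA replication and mitosis medians were -0.11 and -0.14. Of 21 G1 cyclins, cyclin-dependent kinases and E2F-Rb genes 9 were higher and 12 lower with a median of -0.01. Without wild-type replicate 3 these counts were 16 and 5, with a median of 0.04, and the median was above 0 without R882H replicate 2 or 3 as well (0.03 and 0.01). The phosphatase gene Cdc25a stood at -0.44 ± 0.16, Rbl1 at -0.35 ± 0.19 and E2f5 at 0.67 ± 0.49.

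Inhibitors of cyclin-dependent kinases and other quiescence regulators were higher for 15 of 18 tested members, with a median of 0.23, but the member of smallest p, Cdkn2a, was among the lower ones, as given above. Cdkn1a, the p21 inhibitor, read 2.12, 1.40 and 2.73 with R882H, 1.21, 0.80 and 1.14 with the wild-type enzyme and 1.49, 2.17 and 2.25 with empty vector. R882H and wild-type arrays did not overlap (difference 1.04 ± 0.34), but the empty vector arrays lay within the R882H range. Cdkn2d, the p19 inhibitor of Cdk4 and Cdk6, read 4.63, 4.63 and 4.71 against 4.19, 4.25 and 4.03, a difference of 0.50 ± 0.14 without overlap. The median of the list was -0.00 without wild-type replicate 3 and 0.38 without either of the other wild-type arrays. Targets of p53 were divided, 15 of 24 higher and 9 lower, with a median of 0.13, and 0.25 without wild-type replicate 1. In each direction 3 had an unadjusted p under 0.05, beside 3.66% of all genes higher and 4.41% lower. On the higher side were Cdkn1a, Plk2 at 2.18 ± 0.80 and the nutrient stress sensor gene Sesn2 at 0.56 ± 0.22. On the lower side the apoptosis effector gene Perp read -0.66, -0.53 and -0.19 against 1.28, 1.57 and 0.87, a difference of -1.70 ± 0.36 without overlap, with Tigar at -1.70 ± 0.52 and the nuclease gene Aen at -0.45 ± 0.13. Of 15 Bcl2 family genes 6 were higher and 9 lower with a median of -0.04, which changed sign without R882H replicate 2 or 3 (0.03 and 0.01) and wild-type replicate 1 (0.07). Bbc3 and Pmaip1, death-promoting members induced by p53, stood at 0.71 ± 0.34 and -1.1 ± 0.66, and Bcl2a1d at -1.72 ± 0.69, though it was well above background on 1 R882H array and shares sequence with its paralogs.

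Growth and metabolic genes were lower by small amounts. Over all genes the median was -0.08 in the next to brightest bin and -0.07 in the brightest. The part of the level in the lists of this paragraph was not tested. R882H and wild-type scores overlapped on the Myc, oxidative phosphorylation, glycolysis and cholesterol lists. Targets of Myc and ribosome biogenesis genes were lower for 28 of 34 with a median of -0.18. Nolc1, a nucleolar assembly factor, read 4.35, 4.27 and 4.43 with R882H and 5.03, 4.93 and 4.98 with wild-type DNMT3A, a difference of -0.63 ± 0.19 without overlap. It was the list's only member at an unadjusted p under 0.05, beside 3.66% of all genes higher and 4.41% lower. Hspd1 and C1qbp, both mitochondrial, stood at -0.31 ± 0.16 and -0.28 ± 0.15. Genes of oxidative phosphorylation were lower for 27 of 30 with a median of -0.15 and none at an unadjusted p under 0.05, the respiratory chain subunit genes Ndufs3, Uqcrfs1 and Sdha standing at -0.29 ± 0.15, -0.23 ± 0.14 and -0.20 ± 0.13. Wild-type replicate 3 scored highest of the 6 arrays on both lists, 0.29 and 0.27, and without it the medians were -0.10 and -0.06. Without wild-type replicate 2 they were -0.29 and -0.25, and without R882H replicate 3 they were -0.28 and -0.25. After cyclic loess they were -0.15 and -0.10. Glycolysis and hypoxia response genes were lower for 17 of 27 with a median of -0.14. The glucose transporter gene Slc2a3 read 2.30, 2.58 and 2.19 against 1.59, 1.76 and 1.65, a difference of 0.69 ± 0.18 without overlap, and the oxygen sensor gene Egln3 stood at -0.77 ± 0.24. This median was -0.26 without wild-type replicate 2, -0.09 without wild-type replicate 3 and -0.08 without R882H replicate 2. Cholesterol and fatty acid synthesis genes were lower for 15 of 23, with a median of -0.15 that was -0.08 without either R882H replicate 1 or wild-type replicate 1. Cyp51, the lanosterol demethylase, read -1.29, -0.93 and -0.88 against -2.01, -1.91 and -1.80, a difference of 0.88 ± 0.18 without overlap, whereas Hmgcs1, an earlier enzyme of the pathway, stood at -0.45 ± 0.15 and the regulator Srebf2 at 0.46 ± 0.23. Cytokine receptors were even, 14 of 26 higher and 12 lower, with a median of 0.01 that ranged from -0.21 to 0.04 over leaving out 1 array at a time, and the interleukin 6 receptor genes Il6ra and Il6st stood at -1.26 ± 0.37 and -0.51 ± 0.24.

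Genes that DNA methylation keeps silent or monoallelic are the classes tied most directly to the enzyme. Of 17 tested imprinted genes, whose maternal and paternal copies differ in methylation and activity, 14 were higher with a median of 0.11, and 0.07 without wild-type replicate 3. It was 0.04 with normexp background correction and 0.22 within slide 2, and after cyclic loess 11 of 17 were higher. The scores overlapped, at 0.06, 0.10 and -0.08 with R882H and 0.01, 0.06 and -0.13 with wild-type DNMT3A. Empty vector scored lower, at -0.18, -0.26 and -0.30. The dimmest bin of all genes had a median of 0.13, and the part of the level was not tested. Peg10, a paternally expressed gene derived from a retrotransposon, read -2.17, -2.40 and -2.06 with R882H, -3.00, -4.39 and -3.74 with the wild-type enzyme and -3.02, -3.67 and -4.13 with empty vector. The R882H arrays lay above all others, a difference of 1.5 ± 0.37 from wild-type DNMT3A, where it was well above background on 1 of 3 arrays. Magel2 and Mest stood at 0.26 ± 0.16 and 0.38 ± 0.30, with 1 Mest probe opposite in sign. Peg10 was the only member at an unadjusted p under 0.05, beside 3.66% of all genes higher and 4.41% lower. Of 27 germline genes known to be silenced by methylation 11 were above background and tested, 5 higher and 6 lower, with a median of -0.00. Piwil1, which binds small RNAs in the male germline, was not well above background on any wild-type array and at least 1.53-fold higher, and Brdt and Sycp3 stood at 0.31 ± 0.21 and -0.36 ± 0.28. The median ranged from -0.06 to 0.09 over leaving out 1 array at a time.

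Genes on the edge of detection leaned to R882H, as did the dimmest bin of all genes. In that bin 7.28% were higher and 3.03% lower at an unadjusted p under 0.05. Probes well above background made up 60.8% ± 3.66 with R882H and 59.4% ± 4.71 with wild-type DNMT3A. The part of either in the counts below was not tested. By the probe tested, 35 of 13042 genes were well above background on all 3 R882H arrays and on no wild-type array, and 15 genes the reverse. With all probes of the gene counted, 31 and 13 genes remained. Beside Ggt1, Klhdc1, Serpinh1, Irf4, Add2, Col3a1 and Piwil1, these included Slc18b1, at -2.93, -3.29 and -2.91 with R882H and at least 1.79-fold higher. Over all settings run this gene was the only one called, with an adjusted p of 0.0460 when the fit held only the 6 arrays of both groups. Its empty vector arrays read -2.90, -5.33 and -3.93. Among 14061 probes above background that carry no gene name here, limma called 0, with a smallest adjusted p of 0.367. At an unadjusted p under 0.05 were 568 of them higher and 303 lower, and 1046 lay all above and 612 all below the wild-type arrays. For the 13042 genes these counts were 477 and 575, and 884 and 1140.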

How the data were processed

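RNA of 9 LSK samples was measured on Agilent SurePrint G3 mouse 8x60K arrays, design 028005, quantified with Feature Extraction 10.10.1.1, per the file headers, which give probe positions on mm9. Per the file headers, that software subtracted the background to give each spot's processed intensity, which is linear; median pixel and local background intensities were deposited too. Calls for spots well above background, saturated or outlying are other columns, per the file headers. A value table, also deposited by the authors, holds log2 values for 41854 probes, and the sources used here give no account of its making. Set against the arrays it matched log2 processed signal minus the array's 75th percentile minus the probe's median over its 9 columns, with column medians of 0 except 1 of -0.00211. The direction of its values is settled by this match, and its column names are not.

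Control and outlier spots (154 to 184 per array) were left out, 0 spots were saturated, and median pixel signals of 79 to 88 stood over local backgrounds of 24 to 29. Of 55681 probes, 27235 had a gene symbol through their accession in a RefSeq gene table, 28446 had none and 0 had several. Those well above background on each of the 3 R882H or the 3 wild-type arrays numbered 30987, 16925 of them with a symbol, and the brightest per symbol gave 13042 genes, 3236 with 2 or more detected probes. Limma 3.58.1 in R 4.3.3 (lmFit, eBayes) was fitted on all 9 arrays, with 6 residual and 2.84 prior degrees of freedom, and a gene was called at a Benjamini-Hochberg adjusted p under 0.05. It was checked on simulated independent normal values, without slide or replicate structure and with a change larger than most differences given here. That check does not show what the fit finds at smaller differences. The number of arrays limits the precision.

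The 33 gene lists, the comparison and the genes were chosen with earlier results of these data known, so lists are given by counts and medians and no list was tested. Named genes were the 8 of smallest p in each direction among genes whose groups did not overlap, the 3 of smallest p of each list and a panel of 21 genes. Not every gene under this rule is reported here. Fgd5, Thbs1, Phf1, Pcna, Rfc2, Gins3, Slc18b1 and the further list members at an unadjusted p under 0.05, with Elane and Ctsg, were named after their values were seen. A check of CpG content over all genes tested was void, since 79.97% had a promoter in the table. Normexp used median pixel signals. The alternatives changed the normalization, background correction, filter, samples, array weights, slide, replicate block, probes per gene and source of the values.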

Additional observations from a re-analysis of the deposited data

How the results depend on the processing

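With limma, 0 genes were called under every setting except the fit of only the 6 arrays of both groups, which called 1, Slc18b1 (adjusted p = 0.0460). The count at an unadjusted p under 0.05, 1052, was 1586 with array weights, 2230 of 30977 with all detected probes as features and 311 with the authors' deposited value table by its column names. It ranged from 706 (without R882H replicate 2) to 1264 (without wild-type replicate 3) over leaving out 1 array at a time, was 1307 without number 3 in every group and 1236 of 20656 without a filter on dim probes. With slide as a block it was 848, of which 480 were among the 1052. The replicate block gave 1490 and 0 called. Same-numbered R882H and wild-type arrays correlated at 0.07, 0.14 and 0.24 in their deviations from the group means, 1 of them under 0.1, so the numbers were not taken to pair the samples. Correlations of arrays with different numbers were not set beside these, so an effect shared by number was not tested.

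Of 153 genes named, 143 kept their sign under the 17 or 18 settings run for each, which left out the deposited value table and the fit of all detected probes. The fit of only the 6 arrays and the replicate block cannot change a difference of group means here. Slide as a block and slide 2 alone give the same difference, so these settings are not separate checks. Flt3 was -0.14 with array weights, -0.10 with the mean of all detected probes, -0.22 without number 3 in every group and -0.26 to 0.36 over leaving out 1 array at a time. Dnmt3b was 0.14 with slide as a block and within slide 2, and Dnmt3a was -0.048 without number 3 in every group. Over leaving out 1 array at a time, Dnmt3a ran from -0.21 to 0.47, Kit from -0.038 to 0.27, Hoxa9 from -0.31 to 0.56, Meis1 from -0.085 to 0.82, Hoxb4 from -0.094 to 0.34, Thbs1 from -1.68 to 0.39, Phf1 from -0.045 to 0.53 and Fgd5 from -0.16 to 0.10. The sign turned without wild-type replicate 3 for Flt3, Dnmt3a, Kit and Meis1, without wild-type replicate 2 for Flt3, Hoxa9, Hoxb4 and Thbs1, without R882H replicate 1 for Flt3 and Phf1, without R882H replicate 2 for Kit and without R882H replicate 3 for Hoxb4. Fgd5, near 0, turned when any 1 of 4 arrays was left out, and was 0.017 with quantile normalization, 0.025 with cyclic loess, 0.012 with normexp, 0.071 with array weights and 0.13 without number 3 in every group. The causes were not tested.

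List medians kept their sign over 18 settings for the stem cell (0.31 to 0.91), megakaryocyte (0.36 to 0.75), erythroid (0.22 to 0.51), Hox (0.22 to 0.61), B lineage (0.07 to 1.32), interferon (0.15 to 0.41), myeloid (-0.57 to -0.18), mitosis (-0.31 to -0.13), DNA replication (-0.21 to -0.08) and Polycomb repressive complex 2 (-0.24 to -0.11) lists. Not all settings were separate checks. The fit of only the 6 arrays, the replicate block and no filter on dim probes gave the main medians of these lists unchanged. Slide as a block gave the same medians as slide 2 alone. Normexp was run on median pixel signals in place of the mean signals first planned. Signals near background limit what dim genes can show.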
